A study of Mus musculus with 54 samples.

Results

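Abhd1, Preb, AI506816, Tyms, Prkag2, Krtcap3 and Rbks lie within 10 Mb of Slc5a1 on mouse chromosome 5. Slc5a1 encodes the sodium-glucose cotransporter SGLT1, and it is the gene deleted in the Sglt1 knockout mice of the study. The 7 genes were picked from the 55487 rows of the deposited table because they differ, or were expected to differ, between Sglt1 knockout and wild-type tubules. Their genotype differences are therefore given as a description, with no test. All 7 were among the 12742 genes that reached 1 TPM in at least 5 samples. TPM is a measure of abundance corrected for transcript length, and every library sums to the same total.

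Tubules of the early proximal segment, recognised by SGLT2, were captured by laser from kidneys of male DBA mice aged 14 weeks, and each sample is RNA of 70 to 80 of them. The mice were Sglt1+/+ (wild type) or Sglt1-/- (knockout), and either non-diabetic (Ins2+/+) or diabetic littermates that carried the Akita allele (Ins2 Akita/+), a mutation of an insulin gene that damages beta cells. They received vehicle or dapagliflozin, an SGLT2 inhibitor, at 10 mg per kg of diet for 2 weeks. A further Akita wild-type group received semaglutide, an agonist of the GLP-1 receptor, at 3 nmol per kg of body weight per day for 2 weeks. In non-diabetic mice there were 5 wild-type and 5 knockout samples on vehicle, and 4 and 6 on dapagliflozin. Akita mice gave 6 wild-type and 6 knockout samples on vehicle, 5 and 6 on dapagliflozin, and 5 wild-type samples on semaglutide. The labels give all knockouts as Sglt1-/-, and the sources used here do not give how the allele was made or in which strain.

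As background, SGLT1 takes up the glucose that SGLT2 leaves behind further along the proximal tubule, while SGLT2, the product of Slc5a2, works in its early part. The 7 genes share a stretch of chromosome rather than a pathway. Abhd1 belongs to the ABHD family of alpha/beta hydrolase fold proteins. Preb encodes SEC12, which loads SAR1 with GTP so that COPII vesicles can form at the endoplasmic reticulum. Tyms encodes thymidylate synthase, which makes the thymidine nucleotide needed for DNA from deoxyuridylate and a folate. Prkag2 encodes a regulatory gamma subunit of AMPK, the kinase that senses cellular energy. Rbks encodes ribokinase, which phosphorylates ribose. Krtcap3 encodes a membrane protein, and AI506816 is a long non-coding RNA.

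All positions are on GRCm38 and were taken from the GENCODE M21 annotation. All 7 genes lie at lower coordinates than Slc5a1 (chr5:33104219-33162870, plus strand). From the farthest to the nearest, AI506816 (chr5:23698296-23712667, minus strand) is 9.39 Mb away and Prkag2 (chr5:24862744-25100642, minus) is 8.0 Mb away. Tyms (chr5:30058202-30073617, minus) is 3.03 Mb away. Abhd1 (chr5:30950066-30955091, plus) and Preb (chr5:30950853-30960361, minus) are 2.15 Mb and 2.14 Mb away and overlap each other. Krtcap3 (chr5:31251691-31253202, plus) is 1.85 Mb away and Rbks (chr5:31624439-31697627, minus) 1.41 Mb away. GENCODE marks 5 of the 7 as protein-coding, and AI506816 as a processed transcript, its row being named by the identifier ENSMUSG00000105987. Mouse Abhd1 is also a processed transcript in GENCODE, with 7 transcripts of which 0 are coding, and RefSeq lists it as a transcribed pseudogene.

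The overlap of Abhd1 and Preb bears on how their values can be read. Of the 1758 exonic bases of Abhd1, 1575 (89.6%) lie inside exons of Preb on the opposite strand, all of them in annotated untranslated sequence of Preb. They make up 21.8% of the 7209 exonic bases of Preb. The first exon of the longest Abhd1 transcript lies outside Preb, and its other 8 of 9 exons lie inside the last Preb exon, which is 4885 bases long (chr5:30950853-30955737). The libraries were made with a kit that keeps strand, per the labels' protocols. The sources used here do not give the strand setting of the quantification, so reads of the 2 genes may not have been fully separated.

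**Figure D1:**
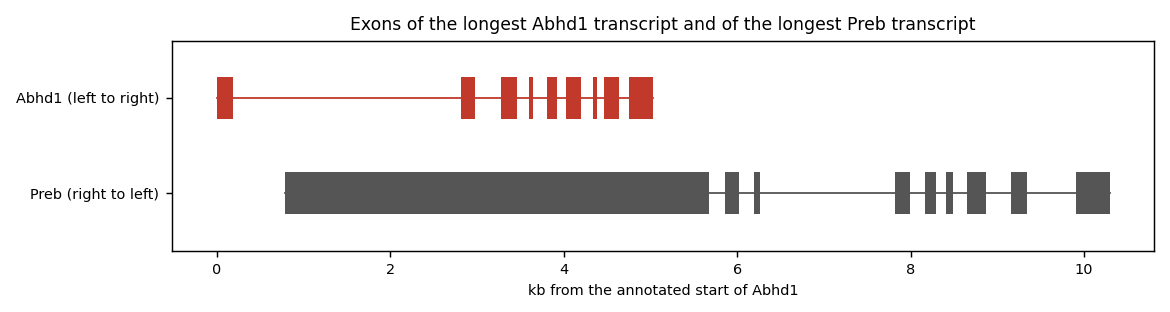
Exons of the longest annotated transcript of Abhd1 and of Preb (blocks), joined by introns (lines), against distance in kb from the annotated start of Abhd1. Abhd1 is read from left to right and Preb from right to left. All but the first Abhd1 exon sit inside the last exon of Preb.

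Within this shared stretch 2 annotated Abhd1 transcripts differ by 1 base, at position 30954155. The sequences, from GENCODE M21 (GRCm38, chr5:30954141-30954169, plus strand, 5′ to 3′), are shown because they tell apart annotated forms of the gene with the largest difference. The capital marks the base that the second transcript skips.
ENSMUST00000201125.3: tcgcaggactgaccAttgtctgcatgttg
ENSMUST00000006814.8: tcgcaggactgaccttgtctgcatgttg
The table holds 1 value per gene, so the 2 forms could not be followed separately.

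Promoters are shown for Tyms and AI506816, the 2 genes that were lower in every knockout library of 1 background, Akita with dapagliflozin. Each window runs from 250 bases before to 50 bases after the start used by its promoter entry, from RefSeq on GRCm38.p6. Both are on the minus strand and read 5′ to 3′. For Tyms this start differs from the 5′ end of the RefSeq gene, which lies at 30073645. The letters TATAAA (the TATA box), the shorter motif CCAAT and the GC box GGGCGG were searched on both strands, and matches are in capitals, none overlapping another. The Tyms window is chr5:30073576-30073875 and the AI506816 window chr5:23712618-23712917.
Tyms: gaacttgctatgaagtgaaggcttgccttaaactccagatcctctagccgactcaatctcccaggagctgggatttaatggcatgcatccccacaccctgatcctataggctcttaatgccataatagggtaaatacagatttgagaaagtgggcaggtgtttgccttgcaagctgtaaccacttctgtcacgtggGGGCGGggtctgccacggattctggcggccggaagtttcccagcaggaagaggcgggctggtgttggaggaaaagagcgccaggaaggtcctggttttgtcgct
AI506816: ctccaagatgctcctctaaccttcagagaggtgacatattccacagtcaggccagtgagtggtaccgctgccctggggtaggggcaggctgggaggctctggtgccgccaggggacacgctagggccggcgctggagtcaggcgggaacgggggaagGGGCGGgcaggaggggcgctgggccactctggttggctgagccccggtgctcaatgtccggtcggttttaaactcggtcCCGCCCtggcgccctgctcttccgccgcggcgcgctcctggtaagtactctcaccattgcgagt
The Tyms window held 1 GGGCGG and no TATAAA or CCAAT, with a GC content of 53%. The AI506816 window held 2 GGGCGG, 1 of them on the other strand, and neither of the other motifs, with a GC content of 66.3%. Of all 32851 promoter windows of the same length, 35.7% held GGGCGG, 37.4% CCAAT and 13.6% TATAAA. Of the 7 genes, 6 had a promoter entry.

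The deleted gene was checked first. Slc5a1 ranged from 0 to 0.123 TPM in the 23 knockout libraries, 14 of which list it at 0, and from 0.814 to 4.29 TPM in the 25 wild-type libraries. No library went against its genotype label. Between 8465 and 11419 genes were detected per library, and 4 libraries had fewer than 9000, 2 in each Akita vehicle group. Nuclear protein-coding genes with a GENCODE position, Lars2 left out, took 5.965% to 14.03% of the TPM of a library. The same set is meant where values are rescaled to nuclear protein-coding genes. The sequencing depth behind these values is unknown, since TPM does not preserve it. Slc5a2 reached 172 ± 50.6 TPM (SD, n = 48). Summed early proximal tubule markers (6 genes) were at 297 to 709 TPM in knockouts and 262 to 676 TPM in wild type. Marker sums of 8 other cell types overlapped between genotypes as well. Examples are 3.34 to 241 TPM against 9.96 to 223 TPM for distal convoluted tubule and 4.25 to 180 TPM against 4.27 to 122 TPM for leukocytes. Only 0.0157% of tested genes did not overlap, so overlap does not show equal cell content. Median sums differed in both directions, with 24.5 TPM in knockouts and 15.8 TPM in wild type for thick ascending limb. For collecting duct they were 13.6 and 15.6 TPM. The part of these other cells in the results was not tested, and fewer cells of a type cannot be told apart from less RNA per cell in such samples.

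Abhd1 was higher in every knockout library than in any wild-type library. In non-diabetic vehicle tubules the wild-type libraries were at 0.672, 0.790, 0.869, 1.09 and 1.73 TPM, and the knockouts at 5.41, 7.58, 9.46, 10.5 and 11.8 TPM. With dapagliflozin the non-diabetic wild type had 0.533, 0.877, 0.895 and 1.85 TPM, and the knockouts ran from 4.98 to 11.2 TPM with a median of 7.15. In both treatments the lowest knockout library was more than 2 TPM above the highest wild-type library. Akita vehicle libraries ran from 0.983 to 1.43 TPM in wild type (median 1.16) and from 4.09 to 7.55 TPM in knockouts (median 5.36). Akita wild type with dapagliflozin had 0.521, 1.20, 1.48, 1.51 and 2.12 TPM, and the knockouts ran from 5.29 to 10.3 TPM with a median of 7.83. Akita wild type on semaglutide, which has no knockout partner, had 0.608, 0.663, 1.11, 1.38 and 1.75 TPM.

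Over all backgrounds Abhd1 averaged 7.51 ± 2.21 TPM in knockouts (SD, n = 23) and 1.15 ± 0.434 TPM in wild type (SD, n = 25), a ratio of 6.52. Here and for the other genes the wild-type libraries include those on semaglutide. The log2 differences by genotype use only the 4 backgrounds that have both genotypes. On the log2(TPM + 1) scale, which understates the change of genes with low values, the difference was 1.97 ± 0.11 (SE). It was 2.28 in non-diabetic vehicle tubules, 2.06 in non-diabetic dapagliflozin tubules, 1.59 in Akita vehicle tubules and 1.96 in Akita dapagliflozin tubules, each with an SE between 0.20 and 0.22. Of the 7 genes, Abhd1 was the only 1 whose knockout libraries all lay above wild type, against 0.00785% of all tested genes. That share is Abhd1 itself, and since genotype chose the genes it is given only for scale. The genotypes did not overlap over all backgrounds in 0.0157% of tested genes, which are Abhd1 and Slc5a1, the latter with all knockouts below (0.00785%).

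The group means of Abhd1 fell into 2 sets by genotype. The knockouts were ordered non-diabetic vehicle (8.96 ± 2.52 TPM), Akita dapagliflozin (8.15 ± 1.94), non-diabetic dapagliflozin (7.50 ± 2.12) and Akita vehicle (5.69 ± 1.28). The 5 wild-type groups followed between 1.37 ± 0.581 TPM (Akita dapagliflozin) and 1.03 ± 0.421 TPM (non-diabetic vehicle). Neighbouring groups overlapped within each set, and the step from the lowest knockout library (4.09 TPM) to the highest wild-type library (2.12 TPM) was the only gap in this order.

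**Figure D2:**
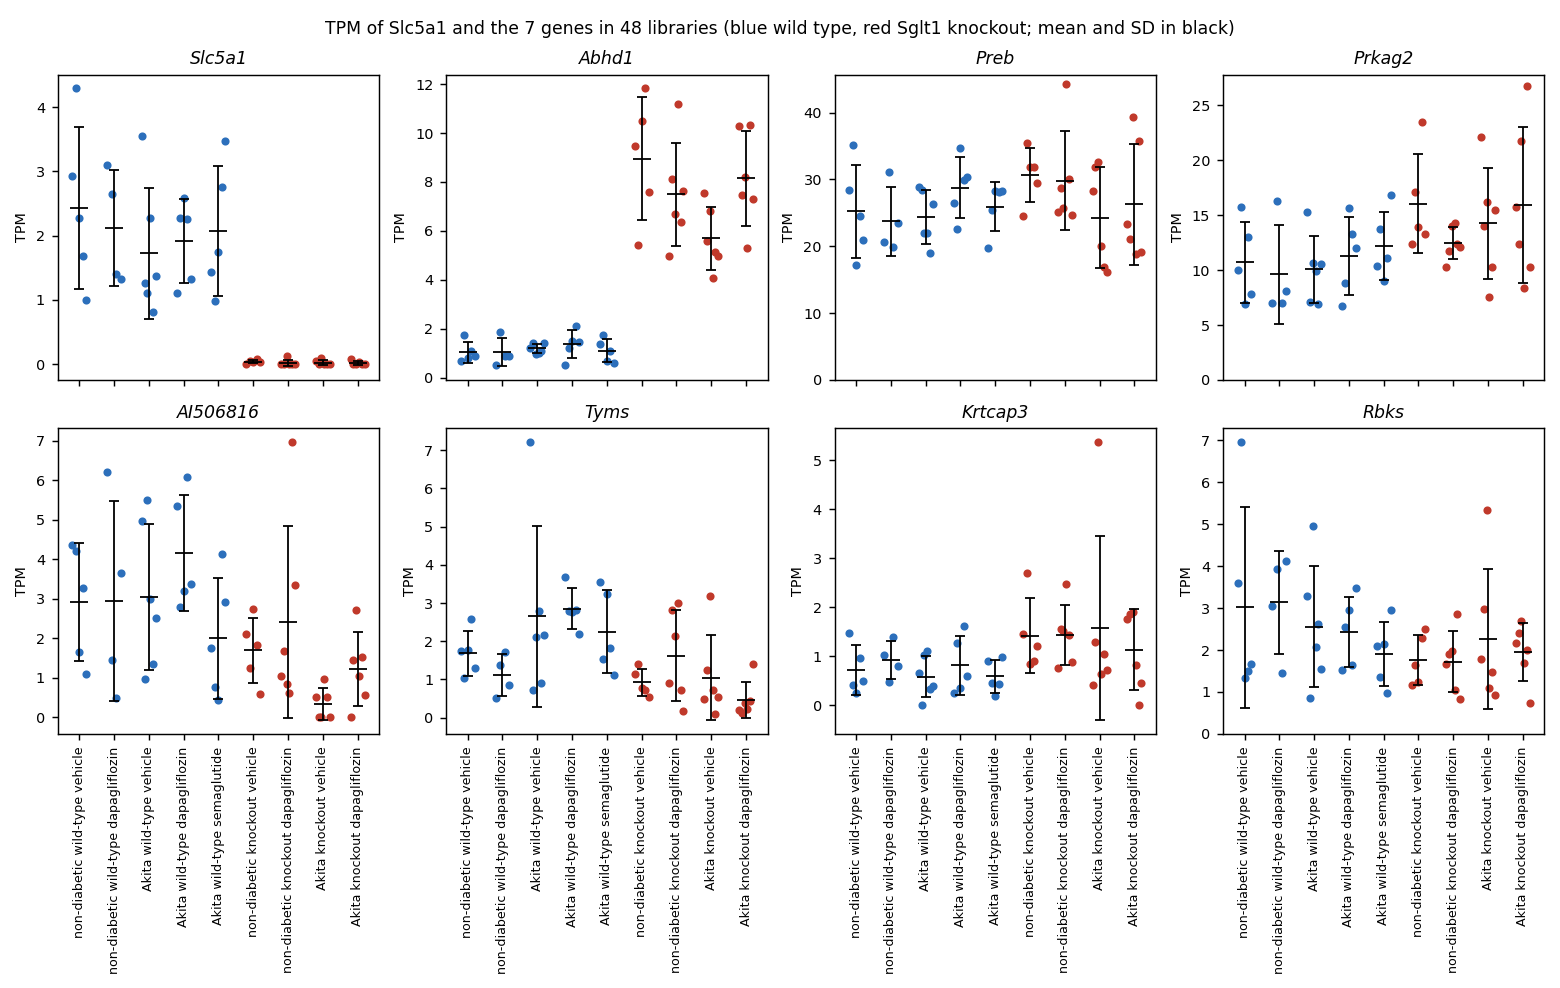
TPM of Slc5a1 and the 7 genes in each of 48 libraries, by group (blue wild type, red knockout), with group mean and SD in black; each panel has its own axis. Slc5a1 and Abhd1 separate by genotype in every background (Abhd1 4.09 to 11.8 TPM in knockouts, 0.521 to 2.12 TPM in wild type), and the other 6 genes overlap over all backgrounds combined.

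Preb, which shares bases with Abhd1, was far more abundant and showed no such step. It averaged 27.6 ± 7.33 TPM in knockouts (16.1 to 44.3 TPM, SD, n = 23) and 25.6 ± 4.85 TPM in wild type (17.1 to 35.1 TPM, SD, n = 25). Of 23 knockout libraries, 12 lay above the wild-type median and 11 below. The log2 difference was 0.10 ± 0.10 (SE). It was 0.01 with median-of-ratios scaling, which divides each library by a factor taken from the tested genes present in every library. Without that scaling, the Preb difference was 0.30 and 0.31 in non-diabetic vehicle and dapagliflozin tubules. It was −0.05 and −0.17 in Akita vehicle and dapagliflozin tubules, with SEs of 0.20 to 0.22 throughout. The median of all tested genes also shifted between these backgrounds, at 0.10, 0.17, 0.01 and −0.02 in the same order. The ratio of Abhd1 to Preb TPM in the same library was 0.280 ± 0.0747 in knockouts (0.152 to 0.442) and 0.0451 ± 0.0145 in wild type (0.0197 to 0.0710). These ratios did not overlap. Across libraries of 1 genotype Abhd1 and Preb were weakly to moderately correlated (r = 0.535 over 23 knockout and 0.434 over 25 wild-type libraries). These libraries also share the number of genes detected, with which both genes were correlated after group means were taken out (r = 0.706 for Preb and 0.442 for Abhd1, n = 48).

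**Figure D3:**
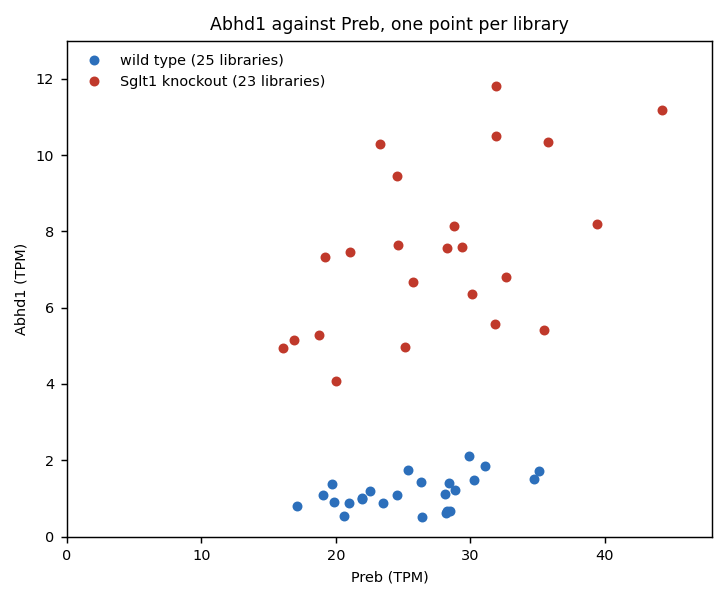
TPM of Abhd1 (vertical axis) against TPM of Preb (horizontal axis), 1 point per library, blue for wild type and red for knockout. Knockout libraries lie above wild-type libraries over the shared range of Preb (17.1 to 35.1 TPM in wild type and 16.1 to 44.3 TPM in knockouts).

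AI506816, the long non-coding RNA, was lower in most knockout libraries. It averaged 1.40 ± 1.52 TPM in knockouts and 3.02 ± 1.77 TPM in wild type (SD), and 21 of 23 knockout libraries lay below the wild-type median. In Akita vehicle tubules 3 knockout libraries list it at 0 and the other 3 had 0.511, 0.517 and 0.979 TPM, while wild type ran from 0.975 to 5.50 TPM. The highest knockout and lowest wild-type library therefore crossed by less than 0.01 TPM there. With dapagliflozin the Akita knockouts ran from 0 to 2.71 TPM, below all 5 wild-type libraries (2.79, 3.19, 3.36, 5.36 and 6.08 TPM). In non-diabetic mice the genotypes overlapped on vehicle (0.581 to 2.73 against 1.09 to 4.37 TPM) and on dapagliflozin, where the highest library of all, at 6.95 TPM, was a knockout. The log2 difference was −0.88 ± 0.20 (SE) over backgrounds, and −0.50, −0.21, −1.52 and −1.28 in non-diabetic vehicle, non-diabetic dapagliflozin, Akita vehicle and Akita dapagliflozin.

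Tyms, the thymidylate synthase gene, also had lower means in knockouts, except in non-diabetic mice on dapagliflozin. It averaged 1.02 ± 0.929 TPM in knockouts and 2.17 ± 1.37 TPM in wild type (SD), with 19 of 23 knockout libraries below the wild-type median. In Akita dapagliflozin tubules the knockouts had 0.114, 0.204, 0.240, 0.380, 0.443 and 1.39 TPM, all below the wild-type libraries at 2.19, 2.77, 2.78, 2.81 and 3.69 TPM. On non-diabetic vehicle the knockouts ran from 0.548 to 1.41 TPM and overlapped the wild type at 1.04 to 2.57 TPM. With dapagliflozin in non-diabetic mice the order of means turned, with 1.62 ± 1.19 TPM in knockouts and 1.12 ± 0.537 TPM in wild type (SD, n = 6 and 4). The log2 difference was −0.62 ± 0.16 (SE) over backgrounds, and −0.47, 0.21, −0.77 and −1.44 in non-diabetic vehicle, non-diabetic dapagliflozin, Akita vehicle and Akita dapagliflozin. With Akita dapagliflozin the knockout libraries thus lay all below wild type for 2 of the 7 genes, AI506816 and Tyms, against 0.157% of all tested genes in that background. They lay all above for Abhd1, against 0.0471%. In the other backgrounds Abhd1 was again the 1 gene of the 7 without overlap, against 0.761% of tested genes above in non-diabetic vehicle, 0.95% in non-diabetic dapagliflozin and 0.0235% in Akita vehicle. Since genotype chose the genes, these shares too are given only for scale.

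Prkag2, Krtcap3 and Rbks overlapped between genotypes in every background. Prkag2, the AMPK subunit gene, averaged 14.6 ± 4.87 TPM in knockouts (7.53 to 26.7) and 10.8 ± 3.35 TPM in wild type (6.69 to 16.8), with 18 of 23 knockout libraries above the wild-type median. Its log2 difference was 0.46 ± 0.13 (SE) and lay between 0.41 and 0.56 in the 4 backgrounds. Prkag2 also tracked the number of genes detected in a library more closely than the other 6 genes did (r = 0.786 after group means were taken out, n = 48), and its genotype difference was 0.38 with that number in the model.

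Krtcap3 was low throughout, with 1.39 ± 1.08 TPM in knockouts (0 to 5.36) and 0.710 ± 0.440 TPM in wild type (0 to 1.61). Its knockout libraries lay above the wild-type median in 20 of 23 cases, and the log2 difference was 0.39 ± 0.15 (SE), or 0.72 with a pseudocount of 0.1. Rbks, the ribokinase gene, had 1.93 ± 0.987 TPM in knockouts (0.749 to 5.34) and 2.59 ± 1.41 TPM in wild type (0.845 to 6.97). Here 15 of 23 knockout libraries lay below the wild-type median, and the log2 difference was −0.34 ± 0.15 (SE). Each of these genes has a near neighbour on the other strand or at its edge. Krtcap3 lies 0.125 kb from Nrbp1 (log2 difference 0.17) and 0.075 kb from Ift172 (−0.12), and Rbks overlaps Mrpl33 (0.25).

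The genes around them gave the setting for these values. Of 445 rows within 10 Mb of Slc5a1, 136 genes were tested, with 82 at lower and 53 at higher coordinates, and 120 are protein-coding. Of the 136 tested genes 13 (9.56%) differed by more than 0.3 (log2) between genotypes, against 7.71% of tested genes elsewhere on chromosome 5 and 5.48% of all tested genes. The 13 include Slc5a1 and 6 of the 7 genes, chosen for their difference, so these shares are a description and their order is not read as a pattern. On the higher side, where none of the 7 genes lies, 1 of 53 (1.89%) differed that much, and values ran from −0.19 to 0.34. The median over the window was 0.07, as over all tested genes.

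The largest difference in the window outside the 7 genes and Slc5a1 was that of Gm43694, a transcript that GENCODE lists as awaiting experimental support, 0.473 Mb below Slc5a1, at −1.0 ± 0.11 (SE). Gm10221 followed at −0.55 ± 0.50, and Gm29609 (0.44 ± 0.25), Gm20671 (0.42 ± 0.18) and Grk4 (0.34 ± 0.16) were the highest. The coding genes next to Abhd1, apart from Gm29609, differed by less than 0.3. Cgref1, 4.48 kb away, differed by −0.21 ± 0.11. Khk, the fructose kinase gene 18.8 kb away and at 71.1 TPM the most abundant of these neighbours, differed by 0.02 ± 0.10. Emilin1 (−0.17), Ost4 (0.00), Agbl5 (−0.14), Slc5a6 (−0.19), Atraid (−0.14), Cad (0.18) and Mpv17 (−0.03) had SEs of 0.13 to 0.21. The nearest coding neighbours of Slc5a1, Ywhah below (−0.17 ± 0.14) and Ctbp1 above (0.15 ± 0.13), were also within this range.

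At the edges of the window the last tested genes inside were 5031425E22Rik, 9.67 Mb below (0.09), and Bod1l, 8.62 Mb above (0.03). The first ones outside were Rpl17-ps5, 10.5 Mb below (0.26), and Cpeb2, 10.1 Mb above (0.05).

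**Figure D4:**
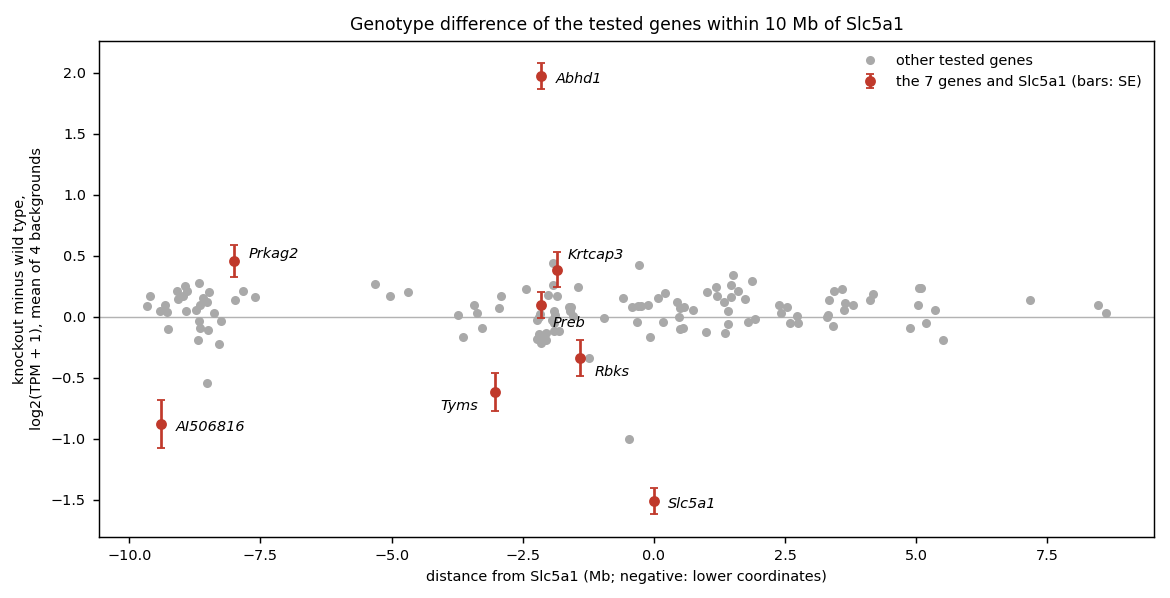
Difference between knockout and wild type (log2(TPM + 1), mean of 4 backgrounds) of the tested genes within 10 Mb, against distance from Slc5a1 in Mb; red points are the 7 genes and Slc5a1 with their SE, and grey points are the other genes. Abhd1 stands at 1.97, most grey points lie between −0.3 and 0.3, and all 7 genes are on the lower side.

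The 7 genes were chosen by genotype, and diabetes, dapagliflozin and semaglutide were tested with limma over all genes. The interactions with genotype and the comparisons within a single genotype reuse group values behind that choice, so they are not independent of it. No value passed an adjusted p of 0.05 in any of the 6 designed comparisons (0 of 42 values; 2 had an unadjusted p under 0.05, and the smallest adjusted p was 0.271). Over 13 comparisons, which add 6 within a single genotype and semaglutide against dapagliflozin, 0 of 91 values passed and 6 had an unadjusted p under 0.05. Of all tested genes 0.557% were called with diabetes, 0.816% with dapagliflozin in Akita mice, and 0% with dapagliflozin in non-diabetic mice, with semaglutide and in both interactions with genotype. In the other 7 comparisons it was 0.0235% for diabetes in wild type, 0.00785% for dapagliflozin in non-diabetic knockouts and 0% in the rest. At an unadjusted p under 0.05 limma gave 2360 of all 12742 tested genes with diabetes and 2225 with dapagliflozin in Akita mice. It gave 470 genes with dapagliflozin in non-diabetic mice, 742 with semaglutide, and 406 and 246 in the interactions with diabetes and with dapagliflozin. The other comparisons with 0% held 332 to 1836 such genes. The limma estimates below therefore give sizes and errors, and a missing call does not show that a gene was unaffected.

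Abhd1 was lower in Akita than in non-diabetic knockouts on vehicle, by medians of 5.36 and 9.46 TPM, and 6 of 6 Akita libraries lay below the non-diabetic median, but the ranges overlapped and the difference was not called. In knockouts its limma log2 difference was −0.55 ± 0.21 (SE, adjusted p = 0.293), while the median of all tested genes was −0.24. With median-of-ratios scaling, which brings that median close to 0, the difference was −0.25. In wild type it was 0.13 ± 0.21 (limma adjusted p = 0.911), and the interaction of diabetes with genotype was −0.68 ± 0.29 (adjusted p = 1.00). The mean over both genotypes was −0.21 ± 0.15 (limma adjusted p = 0.405). The Akita vehicle groups also held all 4 libraries with fewer than 9000 genes, and without them the difference in knockouts was −0.49.

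With dapagliflozin in Akita knockouts 5 of 6 treated libraries of Abhd1 lay above the vehicle median. The log2 difference was 0.45 ± 0.20 (limma adjusted p = 0.651), and 0.21 to 0.24 with the 3 other scalings. This comparison and that of diabetes share the Akita vehicle libraries. The mean over both genotypes in Akita was 0.26 ± 0.14 (limma adjusted p = 0.335), or 0.06 with median-of-ratios scaling, and the interaction with genotype 0.37 ± 0.29 (adjusted p = 1.00). In non-diabetic mice dapagliflozin gave −0.12 ± 0.15, and semaglutide in Akita wild type −0.09 ± 0.21 (limma adjusted p = 0.979 and 0.959). The numbers in the sample titles run from 88 to 99 for semaglutide and from 1 to 82 for Akita wild-type vehicle. The labels do not say what they record, and anything that goes with them cannot be told apart from the drug.

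AI506816 had the widest span of the tested values. In vehicle knockouts it was at 0 to 0.979 TPM in Akita mice and at 0.581 to 2.73 TPM in non-diabetic mice, with 6 of 6 Akita libraries below the non-diabetic median. Its limma log2 difference there was −1.01 ± 0.39 (adjusted p = 0.293). In wild type it was 0.01 ± 0.39, so the mean over both genotypes, −0.50 ± 0.27 (limma adjusted p = 0.304), came from the knockouts. Its interaction of diabetes with genotype was −1.02 ± 0.55 (limma adjusted p = 1.00). With dapagliflozin in Akita it was higher by 0.56 ± 0.27 (limma adjusted p = 0.271), in 10 of 11 libraries against the vehicle median of their genotype. Without the 4 libraries with few genes this value was 0.35, and that of diabetes over both genotypes −0.29. A pseudocount of 0.1 gave 1.17 and −1.29 for the same comparisons, −2.57 for diabetes in knockouts and −2.56 for the interaction, none of them called. In Akita wild type, semaglutide libraries (0.429 to 4.12 TPM) were lower than dapagliflozin libraries (2.79 to 6.08 TPM) by −0.90 ± 0.40 (limma adjusted p = 1.00).

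Of the other 5 genes, none had an unadjusted p under 0.05 in the 13 comparisons. Tyms had a limma interaction of dapagliflozin with genotype in Akita of −0.67 ± 0.42 (adjusted p = 1.00), its means being 2.65 and 2.85 TPM on vehicle and dapagliflozin in wild type and 1.05 and 0.462 TPM in knockouts. This value was −0.43 without Akita knockout vehicle sample 3, −0.94 without Akita wild-type vehicle sample 1 and −1.30 with a pseudocount of 0.1. Preb, the SEC12 gene, differed by −0.37 ± 0.21 with diabetes in knockouts (limma adjusted p = 0.387), by −0.13 without the libraries with few genes and by −0.03 with median-of-ratios scaling. Prkag2, Krtcap3 and Rbks had group means of 9.61 to 16.1 TPM, 0.582 to 1.58 TPM and 1.72 to 3.14 TPM.

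**Figure D5:**
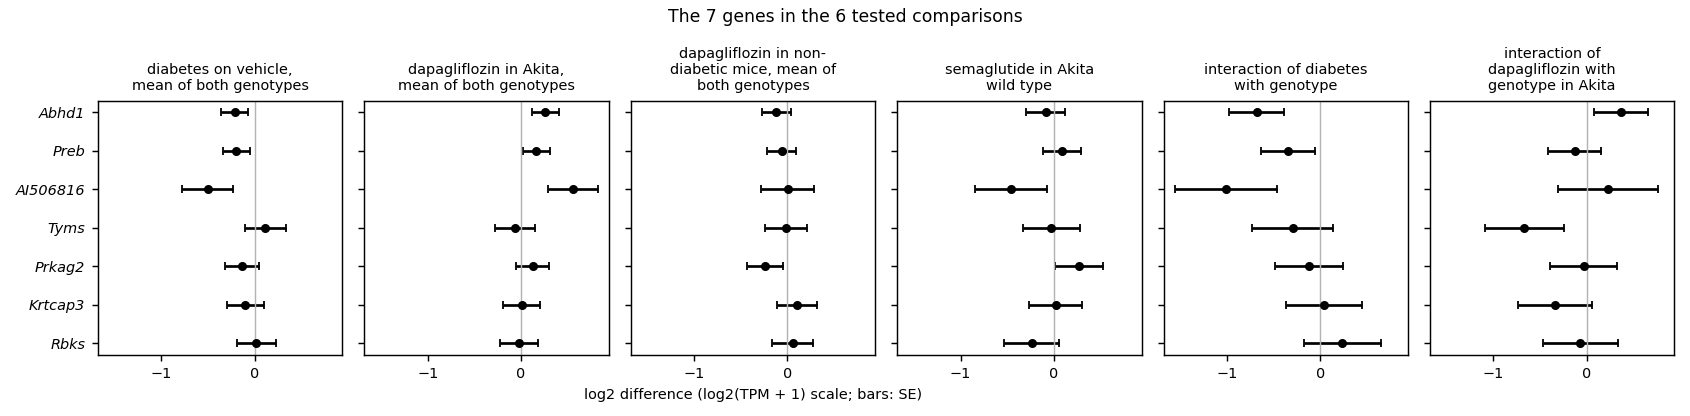
Log2 difference (log2(TPM + 1) scale, points) and SE (bars) of the 7 genes, in rows, for the 6 tested comparisons, in panels. No value passed an adjusted p of 0.05 in limma; the value farthest from 0 is that of AI506816 in the interaction of diabetes with genotype, at −1.02.

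The pathways of the genes were read from lists of their other members. Of all tested genes 0.0235% were called by genotype, the contrast that chose Abhd1. The 7 genes and Slc5a1 are left out of the counts that follow, whether or not they would be called. By genotype 0 of 15 tested genes were called in the ABHD family, 0 of 14 in the COPII coat and 0 of 10 in AMPK. In thymidylate and folate metabolism it was 0 of 8, in ribose and pentose phosphate metabolism 0 of 11 and in glucose transport 0 of 4. The most abundant relatives of Abhd1 were Abhd14b (19.8 TPM, log2 difference by genotype 0.17 ± 0.15), Abhd16a (15.8 TPM, −0.03 ± 0.14) and Abhd2 (7.94 TPM, 0.16 ± 0.13). The ABHD family had a median of 0.04 by genotype, beside 0.07 for all tested genes. Abhd1, chosen by genotype, had the highest log2 difference of all 12742 tested genes (1.97). That no other member of the family reached it therefore says nothing particular about the family.

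Among partners of Preb, Sec31a (21.6 TPM) and Sec24c (16.9 TPM), of the outer and inner COPII coat, differed by 0.19 ± 0.12 and 0.03 ± 0.14 by genotype, and the cargo receptor gene Mia3 (19.4 TPM) by 0.12 ± 0.11. For Prkag2 they were Stk11, which encodes the upstream kinase LKB1 (13.8 TPM, 0.08 ± 0.11), Prkaa2, a catalytic subunit (7.78 TPM, 0.20 ± 0.12), and Prkab1, a beta subunit (6.01 TPM, −0.22 ± 0.14). The other gamma subunits, Prkag1 and Prkag3, differed by −0.03 ± 0.11 and 0.08 ± 0.16. For Tyms, the folate enzymes Shmt2 (38.5 TPM) and Mthfd1 (27.0 TPM) differed by 0.08 and 0.06. For Rbks, the pentose metabolism genes Taldo1 (29.4 TPM), Tkt (18.2 TPM) and Dera (7.07 TPM) differed by 0.12, 0.02 and 0.16. Among glucose transport genes, Slc5a2 (0.08), Pdzk1ip1, which encodes the SGLT2 partner MAP17 (46 TPM, 0.06), and Slc2a2, which encodes GLUT2 (15.1 TPM, 0.05), were all close to 0.

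In the treatment comparisons Sec23b, of the inner COPII coat, was the only gene of these 6 lists to pass, with dapagliflozin in Akita (0.60 ± 0.15, limma adjusted p = 0.0393), so that 1 of 14 COPII genes besides Preb was called, against 0.816% of all tested genes. The call of Sec23b held under 4 of 11 other settings. With median-of-ratios scaling its difference was 0.36 (limma adjusted p = 0.172), and without the 4 libraries with few genes 0.42 (adjusted p = 0.730). The COPII list had a median of 0.38 in that comparison, with 13 of 14 genes above 0, beside 0.17 for all tested genes. Preb was not called there.

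Over the 48 samples the genes whose log2(TPM + 1) was most like that of Abhd1 were Stau2 (r = 0.589), Irf7 (0.577), Prkag2 (0.574), Cd36 (0.555) and Zdhhc21 (0.550). The most opposite were Slc5a1 (−0.875), Gm43694 (−0.804), Ighv4-2 (−0.485), Tyms (−0.464) and AI506816 (−0.433). These coefficients carry the genotype difference that chose Abhd1. After group means were taken out the order changed. Plekhg6 (0.654), Spag7 (0.639), Ppif (0.629), Mrps10 (0.628) and Trim28 (0.625) were then most like Abhd1, and Alg6 (−0.417), mt-Nd3 (−0.399), Rnu3b1 (−0.386), Rps4l (−0.369) and Cdc42ep4 (−0.353) most opposite. Of the 7 genes, Prkag2 kept its likeness to Abhd1 (r = 0.60) and Preb had 0.450, while Tyms (0.09), AI506816 (−0.12), Krtcap3 (0.01) and Rbks (0.10) were near 0. Prkag2 and Preb were themselves correlated (r = 0.683), and these 3 genes share with each other their correlation with the number of genes detected.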

How the data were processed

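The deposited table holds TPM for 48 of 54 labelled samples, as the authors made it; 6 samples were not analysed here. The submitters' processing notes name Salmon and MultiQC 1.8 and the build GRCm38. The Salmon version, the annotation release and the rule for removing outliers are not given in these sources. The number in each sample's title tied it to its column, and the labels gave its group. No label says which samples came from separate animals, so p-values reflect spread between samples alone, part of which may be technical.

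The 7 genes and the gene lists were chosen with earlier results of these data known. Of 13233 rows with an Ensembl identifier as name, 12973 received a symbol, and 51759 rows had a position in GENCODE M21. Genes with at least 1 TPM in at least 5 samples were analysed as log2(TPM + 1), with a pseudocount of 1. A linear model with 9 group means (39 residual degrees of freedom) was fitted to all 12742 genes. It used limma 3.58.1 in R 4.3.3, with trended and robust variances (statmod 1.5.0). The same fit was run on simulated normal values drawn independently for each gene and library. Those values hold no library-wide shift, so they do not show how the model behaves under such a shift. P-values are two-sided, with Benjamini-Hochberg adjustment per comparison, and an adjusted p under 0.05 is a call. SE is that of the model and SD that of TPM between samples. Marker and pathway genes without a call were named as the 3 most abundant of a list, and neighbours by distance; not every gene this would name is reported here. Alternatives were another pseudocount, filters and scalings, covariates, other variance settings and samples left out.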

Additional observations from a re-analysis of the deposited data

Results flagged for a closer look

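In each group, of 4 to 6 samples, the highest and lowest TPM of the 7 genes were checked with Dixon's test for a sample far from the rest. Of 63 sets of values 6 had such a sample, and each was the highest of its group. The rate of about 1 in 20 expected by chance holds for normally distributed values. TPM was not checked for that, so no excess is read from this count.

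Tyms had 3 of them. Sample 1 of Akita wild-type vehicle was at 7.20 TPM, with the next at 2.78 TPM. Sample 3 of Akita knockout vehicle was at 3.18 TPM, with the next at 1.24 TPM, and sample 6 of Akita knockout dapagliflozin at 1.39 TPM, with the next at 0.443 TPM. Krtcap3 was at 5.36 TPM in the same Akita knockout vehicle sample 3, where the next library had 1.29 TPM. Preb was at 44.3 TPM in sample 4 of non-diabetic knockout dapagliflozin, with the next at 30.1 TPM. Prkag2 was at 16.3 TPM in sample 3 of non-diabetic wild-type dapagliflozin, with the next at 8.12 TPM.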

How the results depend on the processing

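The log2 difference of Abhd1 by genotype was 1.97 as reported, 2.64 with a pseudocount of 0.1, and 1.94 to 2.02 when 1 sample was left out in turn. A pseudocount of 0.1, which weighs low values more, also took AI506816 to −1.61, Tyms to −1.17 and Krtcap3 to 0.72 by genotype. The 7 genes kept the sign of their genotype difference under all settings run; Krtcap3 failed the stricter filter and has no value there. None of the 7 was called in the 6 tested comparisons under any setting or with any sample left out. The diabetes difference of Abhd1 averaged over genotypes, −0.21 as reported, turned to 0.00832 with median-of-ratios scaling, 0.00666 when rescaled to nuclear protein-coding genes and 0.0134 with quantile normalization; the median of all genes in that comparison was −0.20 as reported and close to 0 under these scalings. Its semaglutide difference ran from −0.19 to 0.00215 with 1 sample left out, the last without sample 6. Of the 42 tested values 19 changed sign under at least 1 of 7 settings, all of them 0.21 or smaller. Sec23b with dapagliflozin in Akita had limma adjusted p-values of 0.0318 to 0.730 over the other settings and of 0.0174 to 0.0962 with 1 sample left out; the cause was not tested. No paired analysis was possible because the labels give no replicate numbers. Depth is unknown in TPM, so the counting error of values near 0, as in AI506816, Tyms and Krtcap3, could not be estimated.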
